A study of Mus musculus with 2 samples.

Results

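The interleukin-1 (IL-1) family was followed in CMT93 cells, an established line from a mouse colorectal carcinoma, through 10 genes: the ligand genes Il1a, Il1b, Il18 and Il33, the antagonist gene Il1rn, and the receptor genes Il1r1, Il1r2, Il1rap, Il1rl1 and Il18r1. They were found by their gene names in the array files, where 15 probes on 24 spots carry them, and they are 10 of 34648 gene names on the array. The LPS array held RNA of CMT93 cells treated for 24 h with 3 µg/mL lipopolysaccharide, a cell wall component of Gram-negative bacteria that activates Toll-like receptor signalling, and the control array held RNA of CMT93 cells labelled as control. The cells were grown in DMEM, and the labels give a C57BL/ICRF donor, rectum as tissue and a donor age of 19 months. Each group had 1 array, both on 1 slide and in 1 scan, so there were no replicates and no test was possible, and precision is limited by the number of arrays.

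IL-1 alpha and IL-1 beta bind the receptor encoded by Il1r1, which pairs with the accessory chain encoded by Il1rap to start MyD88 and NF-kB signalling. IL-33 signals through the Il1rl1 product, also called ST2, with the same accessory chain, while IL-18 uses the receptor chains encoded by Il18r1 and Il18rap. The pathway is restrained by the receptor antagonist encoded by Il1rn, by the decoy receptor encoded by Il1r2 and by soluble forms of ST2 and of the accessory chain. IL-18 and IL-33 are known products of barrier epithelium, whereas IL-1 beta is best known from macrophages.

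The probes show which part of each transcript was read. They are 60 bases long, and their positions are those of the mm9 build in the files. The probes below were chosen because they carry the family's largest difference in each direction, separate a soluble from a membrane-bound form, read a receptor gene not well above background (Il1r2), were well above background with LPS alone (Il18r1), or read the ligand gene Il33, bright on both arrays. Each lies in an exon of the transcript that the files name for it, while coding and untranslated parts were not told apart here. The first probes are given whole, 5′ to 3′.
Il1rn, chr2:24205094-24205153, plus strand: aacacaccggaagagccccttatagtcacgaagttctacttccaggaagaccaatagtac
Il18, chr9:50389761-50389820, plus strand: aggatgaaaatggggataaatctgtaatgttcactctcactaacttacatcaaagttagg
Il1rap transcript variant 2, chr16:26701498-26701557, plus strand: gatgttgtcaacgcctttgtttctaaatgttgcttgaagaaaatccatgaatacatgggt
Il18r1 transcript variant 2, chr1:40537851-40537910, plus strand: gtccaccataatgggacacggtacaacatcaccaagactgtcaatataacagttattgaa
Il1r2, chr1:40180014-40180073, plus strand: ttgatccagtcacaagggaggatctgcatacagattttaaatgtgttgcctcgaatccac
For Il33 and the probes of Il1rl1 that gave signal, the first 30 bases are shown.
Il33, probe at chr19:30035101-30035160, plus strand: gtgaatctgtacgatatctttaaagtagta
Il1rl1 transcript variant 2, probe at chr1:40504769-40504828, plus strand: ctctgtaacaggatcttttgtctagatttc
Il1rl1 transcript variant 1, probe at chr1:40522187-40522246, plus strand: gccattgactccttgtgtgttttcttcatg
The Il1rn probe is listed for 3 RefSeq transcripts, the Il33 probe for 2 and the Il18r1 probe shown here for 2, of which variant 2 is the one the files name, so each reads those forms together. In Il1rap and Il1rl1 the variant 2 transcripts are those of the soluble proteins.

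A spot counts as well above background where its signal exceeds 13 times the SD of the background, as the scanner software flags it. The LPS array had 32448 such spots and the control array 33091, which were 54.7% and 55.8% of the 59305 spots that are not controls, and no spot was saturated. The same flag was set for 6 of 308 negative control spots on the LPS array and 5 of 308 on the control array. Raw brightness of negative control spots reached 139 and 87.1 in the same order. The raw values of Il1rn and of both Il18r1 probes lay below these highest values, so the flag alone does not secure such dim probes. All 10 epithelial markers examined were above background on both arrays, including Epcam, Cdh1 and the keratin genes Krt8, Krt18 and Krt19. Their log2 differences were all below 0, from -0.92 for Krt20 to -0.0070 for Cdh1 with a median of -0.22, and their summed signal was 663186 with LPS and 767920 in control. Of 13 macrophage markers, 5 were above background on both arrays, 3 on the LPS array only, 1 on the control array only and 4 on neither, the last being Lyz2, Lyz1, Tyrobp and Laptm5. Aif1, at a log2 difference of 2.18, was the one of the 5 measured macrophage markers past 2-fold, and Ptprc, above background in control only, was at least 3.03-fold lower with LPS. Summed processed signal over the macrophage list was 10990 on the LPS array and 10381 on the control array, and the part of such cells in the results was not tested. Of 7 neutrophil markers, 4 were above background on both arrays, and so were 4 of 10 fibroblast and endothelial markers. Neither array gave signal well above background for 2 and 4 of these lists. Csf3r, on the neutrophil list, had 58311 with LPS and 62531 in control, above Cdh1 at 23900 and 24773. A marker above background thus does not by itself identify a cell type here.

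Across the family, 7 of the 15 probes, from 6 genes, were above background on both arrays, 1 further probe on the LPS array only, and 7 on neither. Over the whole array 52.2% of probes were above background on both arrays, 1.86% on the LPS array only, 2.95% on the control array only and 43% on neither. Of the 7 measured probes 1, that of Il1rn, was higher with LPS by 2-fold or more, and 0 were lower by as much. The shares over all 29053 probes measured on both arrays were 1.29% higher and 0.513% lower. At 1.5-fold 3 member probes were higher and 1 lower, against 3.39% higher and 2.66% lower over the array. In bulk RNA such as this, a change in the number of cells with a transcript and a change in transcript per cell cannot be told apart.

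**Figure D1:**
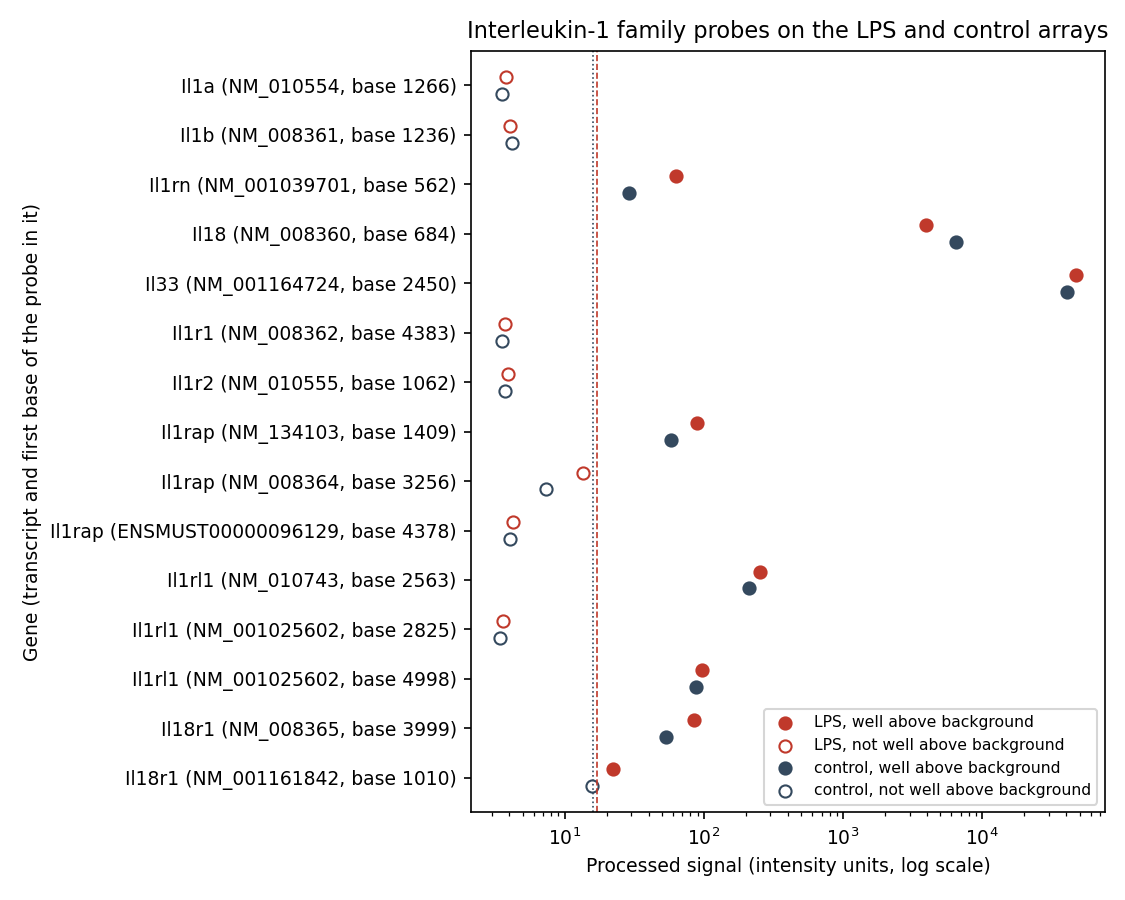
Processed signal (intensity units, log axis) of the 15 member probes, with the LPS array above the control array in each row, labelled by gene, transcript and the probe's first base in it. Filled circles are well above background and open circles are not, and the vertical lines mark the lowest signal well above background (dashed at 16.9 for LPS, dotted at 15.9 for control); Il1a, Il1b, Il1r1 and Il1r2 lie left of both lines on both arrays.

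Neither agonist gene, Il1a or Il1b, reached the threshold for well above background with LPS or in control. Il1a was read by 1 probe on chromosome 2 (129125994 to 129126053, minus strand), whose spot had a raw brightness of 29.7 on the LPS array over a local background of 23, and of 31.4 on the control array over 24. Il1b, on the same chromosome (129190347 to 129190406, minus strand), was printed on 10 spots, of which 9 were used after 1 outlier was left out. Their processed signals had a lowest, median and highest of 3.58, 4.01 and 5.05 on the LPS array, against 3.39, 3.85 and 6.06 on the control array. None of the 9 spots was well above background on either array, although 2 on each passed the software's looser test for signal above background, and the ranges of the arrays overlapped. For 7 of the 9 spots on each array the software had written a surrogate, so these low values have no order. Raw brightness ran from 30.3 to 39.1 over local backgrounds of 28 to 37 on the LPS array and from 27.6 to 40.1 over 30 to 40 on the control array. Negative control spots, 308 per array, had medians of 28.3 on both. On both arrays the Il1b spots thus lay around the level of their local backgrounds.

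**Figure D2:**
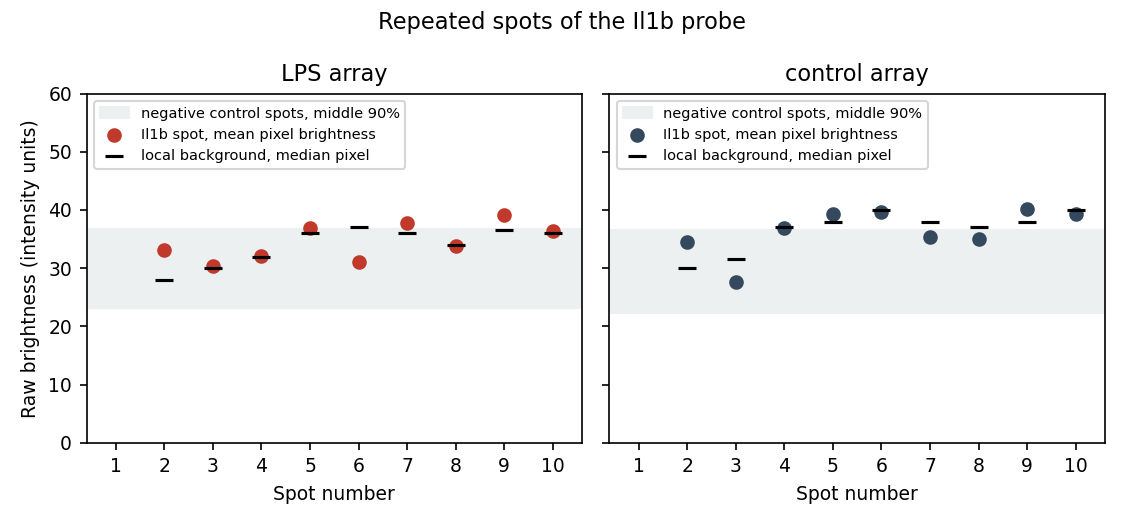
Raw brightness (mean pixel, intensity units) of the 9 used spots of the Il1b probe on the LPS array (left) and the control array (right), with the local background of each spot as a dash and the middle 90% of 308 negative control spots as a band. The spots run from 30.3 to 39.1 with LPS and from 27.6 to 40.1 in control, around their local backgrounds on both arrays.

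Il18 was the lower member. Its processed signal was 3971 ± 397 on the LPS array, against 6506 ± 651 on the control array, where the error is that of the scanner software for 1 spot. The log2 difference was -0.67 ± 0.20, or 1.59-fold lower with LPS. Raw brightness was 3828 and 6217 on these arrays over local backgrounds of 23 and 28, so the background bears little on this value, and it lay between -0.71 and -0.65 over 7 other background corrections and scalings. Probes of similar brightness (2228 within 0.5 on the log2 scale) had 5th and 95th percentiles of -0.26 and 0.38. The spread between repeated spots of probes in this range of brightness had a median SD of 0.04. The scanner error and the spot SD lie within the slide and do not hold the spread between cultures. The percentiles are of differences between the LPS RNA and the control RNA. They hold treatment and any culture difference together, with no replicate to separate them. The epithelial markers were lower as well, with a median of -0.22, and Krt20 at -0.92, Vil1 at -0.72 and Epcam at -0.56 were the lowest. The part of these markers in the Il18 value was not tested.

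The alarmin gene Il33, whose product is released by damaged epithelial and endothelial cells, was bright on both arrays. It had a processed signal of 47128 ± 4713 with LPS and 40796 ± 4080 in control. Its raw brightness was 1446 times the local background on the LPS array and 1186 times on the control array. The log2 difference of 0.25 ± 0.20 was close to the scanner error, and 88.1% of measured probes lay below it. Il33 and Il18 were the only members among the brighter 50% of measured probes, and the pair differed in direction.

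Il1rn had the largest difference among the 7 measured probes of the 10 genes, though not with normexp, where Il18, at -0.65, was larger in size. Its processed signal was 62.8 ± 7.44 on the LPS array and 28.9 ± 4.78 on the control array. This was 2.25-fold higher with LPS, a log2 difference of 1.17 ± 0.29. It was a dim probe, with a raw brightness of 94.6 over a local background of 38 on the LPS array and of 64.5 over 41 on the control array. With normexp, which models the local background in place of the software's own subtraction and adds an offset of 50, its log2 difference was 0.47, under 2-fold, while the 6 other corrections and scalings gave 1.12 to 1.24. The 3646 probes of similar brightness had 5th and 95th percentiles of -0.69 and 0.64. For the dimmest repeated probes the spot SD had a median of 0.15 and reached 0.50.

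**Figure D3:**
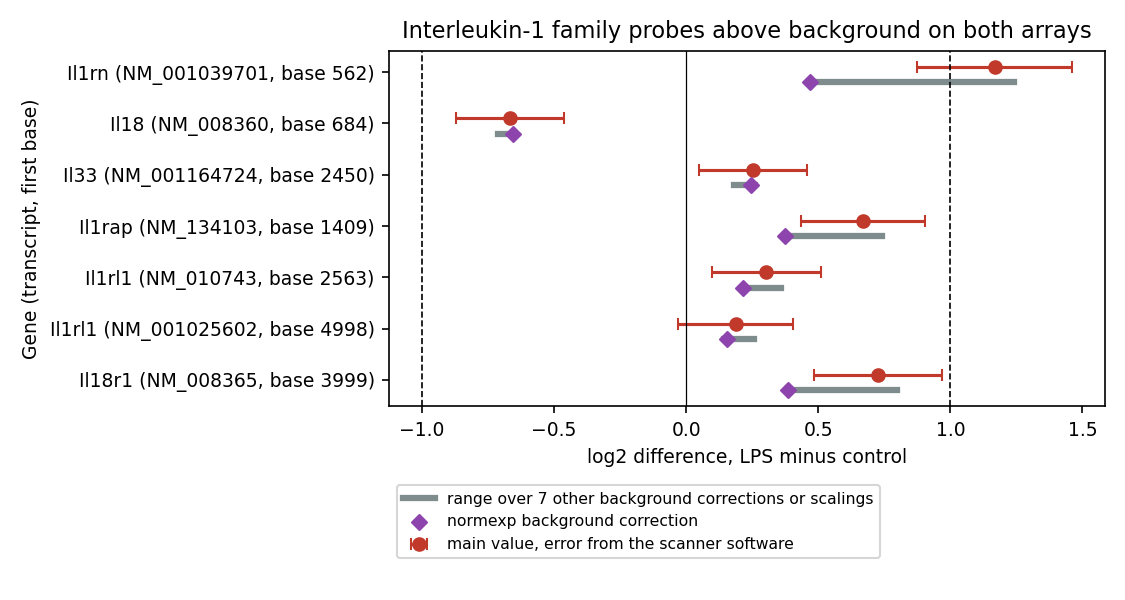
The log2 difference, LPS minus control, of the 7 member probes above background on both arrays, with the scanner error as bars; grey bars below each point give the range over 7 other background corrections or scalings and diamonds give normexp. Dashed lines mark 2-fold: Il1rn lies at 1.17 but at 0.47 with normexp, and Il18, at -0.67, is the one member below 0.

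The receptors for IL-1 itself were not well above background. Il1r1, read on chromosome 1 (40372667 to 40372726), had a raw brightness of 24.9 on the LPS array over a local background of 31, and of 25.1 on the control array over 31. Il1r2, the decoy receptor gene, had 33.9 over 34 with LPS and 27.2 over 36 in control. Each was read by 1 probe, and both spots carried a surrogate on both arrays. The ligand genes Il1a and Il1b and both genes for their receptors thus lay below the threshold, on both arrays.

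The shared accessory chain gene Il1rap differed by probe. The variant 2 probe, for the soluble form, had a signal of 88.7 ± 9.75 with LPS and 57.5 ± 6.92 in control, a log2 difference of 0.67 ± 0.24, or 1.59-fold, and 0.37 with normexp. The variant 1 probe, for the membrane-bound form (chromosome 16, 26716515 to 26716574), had 13.6 ± 3.93 and 7.37 ± 3.58 in the same order and was well above background on neither array, so no fold is given. A further probe (26725291 to 26725350), named for an Ensembl transcript alone, carried surrogates of 4.26 and 4.07. The variant 1 probe passed the software's looser test for signal above background on both arrays. Its signal was also higher with LPS, but the errors of these signals overlap. Only the soluble variant thus had a measured difference, and the membrane-bound variant was not measured well enough to be set beside it. A difference particular to the soluble form was not shown.

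Il1rl1, which encodes the IL-33 receptor ST2, was above background in both forms. The variant 2 probe, for soluble ST2, had 252 ± 25.5 with LPS and 211 ± 21.4 in control, a log2 difference of 0.30 ± 0.21. A variant 1 probe, for the membrane-bound form, had 96.5 ± 10.3 with LPS and 87.4 ± 9.34 in control, at 0.19 ± 0.22. The differences of the 2 forms lay within each other's error. Another variant 1 probe (40520014 to 40520073) carried a surrogate on both arrays, 3.60 with LPS and 3.42 in control, so the 2 probes of variant 1 disagree on whether that form is above background. Cpa3, Mcpt4, Fcer1a, Gata3 and Il7r, markers of mast cells and type 2 lymphoid cells that carry ST2, were above background on neither array, and 3 of the 8 markers of that list (Tpsb2, Kit and Rora) were measured on both. Kit was 2.45-fold lower with LPS, while Tpsb2 and Rora were higher, at log2 differences of 0.34 and 0.55. The list's summed signal was 1543 with LPS and 3136 in control, of which Kit alone gave 1104 and 2791. The part of such cells in the Il1rl1 values was not tested.

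Il18r1, the ligand-binding chain of the IL-18 receptor, was higher on the LPS array by its variant 1 probe, while its other probe was less certain. The variant 1 probe (40557541 to 40557600) had 85.0 ± 9.48 with LPS and 53.0 ± 6.64 in control, at 0.73 ± 0.24 or 1.65-fold, and at 0.39 with normexp. The probe named for variant 2 was well above background with LPS alone, at 22.3 ± 4.56, against 15.6 ± 4.11 in control. With the LPS signal taken as exact, this bounds the ratio at 1.45-fold or more, but the errors of these signals overlap. That log2 bound of 0.53 was 0.19 with normexp and 0.28 with the background-subtracted signal floored at 1. Over the array 40.9% of probes above background on the LPS array only had a bound of at least 2-fold, and this probe did not. Of 9 T and NK cell markers, whose cells are the best known bearers of this receptor, 3 (Cd3e, Cd4 and Nkg7) were above background on both arrays, at log2 differences of 0.0049, -0.03 and -0.09, and 6 on neither. The summed signal of that list was 3788 with LPS and 3996 in control, and its part in the Il18r1 values was not tested.

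The other receptor chains were examined as a list of 5 genes. Il18rap, the signalling partner chain of Il18r1, had 98.3 with LPS and 35.0 in control, at 1.53 or 2.90-fold, and at 0.73 with normexp. Both chains of the IL-18 receptor thus had a measured probe higher with LPS, while the ligand gene Il18 was lower. Sigirr, whose product dampens signalling by the family, had 3387 with LPS and 4260 in control, at -0.29. Il1rl2, the IL-36 receptor gene, had 14.6 and 3.64 in the same order and was above background on neither array, which also holds for Il1rapl1 and Il1rapl2. On chromosome 1 the genes Il1r2, Il1r1, Il1rl2, Il1rl1, Il18r1 and Il18rap follow each other between 40180014 and 40605788, read by 9 probes. The 3 genes at the lower coordinates had no probe well above background. Of the 6 probes of the 3 genes at the higher coordinates, 4 were well above background on both arrays, 1 of Il18r1 on the LPS array only and 1 of Il1rl1 on neither.

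Among 6 other ligand, antagonist and binding protein genes, 2 were measured on both arrays. Il1f10, which encodes IL-38, had 319 with LPS and 115 in control, at 1.52 or 2.86-fold and at 1.09 with normexp. Il18bp, whose product neutralises IL-18, had 95.0 with LPS and 115 in control, at -0.23. Il36a, which encodes an agonist of the IL-36 receptor, is carried on the array as Il1f6. It was well above background with LPS alone, at 90.2 against a surrogate of 3.18 in control. With the LPS signal taken as exact, this bounds the ratio at 5.84-fold or more (a log2 bound of 2.55, and of 1.17 with normexp). The probe was dim, and 6 of 308 negative control spots on the LPS array carried the same flag. Il36b, Il36g and Il36rn were above background on neither array. Il36a, Il1f10 and Il1rn lie within 1 stretch of chromosome 2 (24048293 to 24205153), where the other 3 probes, for Il36g and Il36rn, were above background on neither array.

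Most measured genes that process and release the cytokines differed by less than 2-fold. Of 26, 17 were measured on both arrays, and 15 of these stayed under 2-fold, with 1 higher and 1 lower. Their median log2 difference was 0.09, against -0.02 over all 20394 measured genes, of which 1.46% were higher by 2-fold or more and 0.569% lower. Casp4, which encodes the caspase that senses cytosolic LPS, was highest, with 1323 on the LPS array and 393 on the control array, at 1.80 and at 1.81 on another probe. Txnip was lowest at -1.41, although another of its probes gave 0.31. Casp1, which encodes the caspase that cleaves IL-1 beta and IL-18, and the sensor gene Nlrp3 were above background on neither array.

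All 28 genes of IL-1 receptor signalling were measured, 2 of them at least 2-fold higher and 0 lower, with a median of 0.07. Peli3, a Pellino ubiquitin ligase gene, was highest at 1.59, with 135 on the LPS array and 46.3 on the control array. Irak3, which encodes an inhibitory member of the IRAK family, was 2.15-fold higher, with 178 and 85.6 in the same order. With normexp the log2 differences of these genes were 0.79 and 0.72. Ikbkg, which encodes a subunit of the IkB kinase complex, was lowest at -0.23. By contrast, of 24 genes that respond to IL-1 or LPS, 15 were measured, 12 of them at least 2-fold higher and 0 lower. Their median was 4.04. The lists were chosen with earlier results of these data known, so this contrast is a description and gives no independent support. The measured response genes ran from Icam1 at 0.52 to Lcn2 at 9.26. They included Il6 at 3.07, the NF-kB inhibitor genes Nfkbia at 2.74 and Tnfaip3 at 2.10, and Nfkbiz at 1.42. The others past 2-fold were Cxcl5, Saa1, Ccl2, Cxcl1, Zc3h12a, Csf3 and Tnf, and Saa3, Cxcl2 and Ccl7 had bounds past it. Nfkb2 at 0.83 and Bcl3 at 0.69 were, like Icam1, under 2-fold. The other 6 genes of the list, Ccl20, Il23a, Csf2, Tslp, Ptgs2 and Birc3, were above background on neither array.

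**Figure D4:**
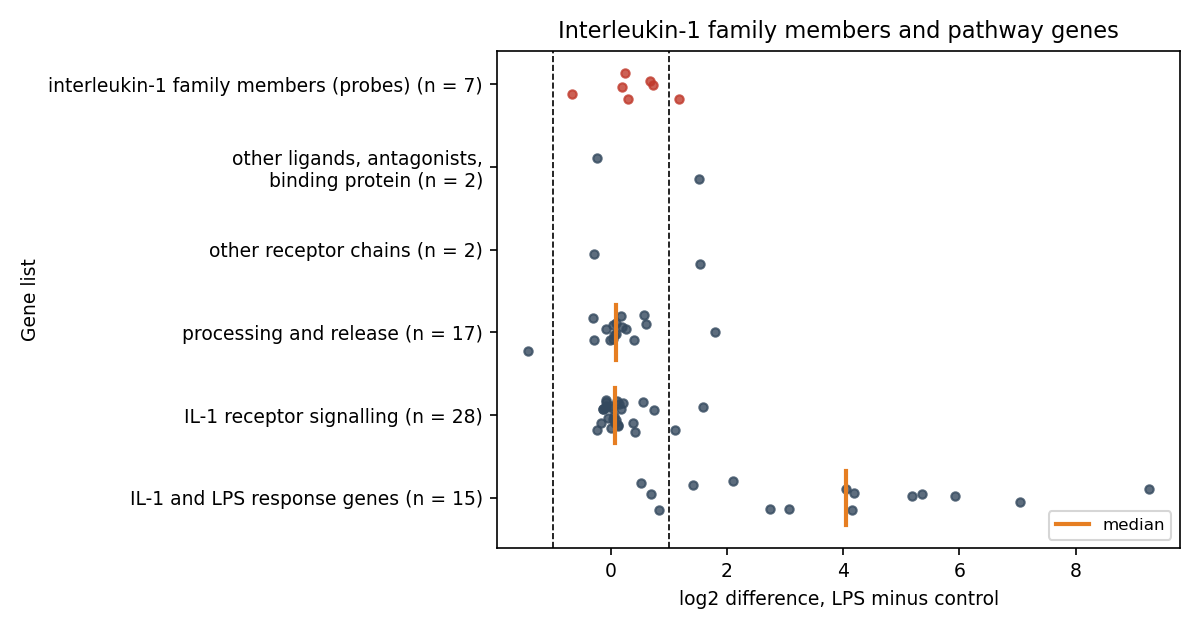
The log2 difference, LPS minus control, of the 7 measured member probes (red) and of measured genes in 5 related lists (dark, brightest probe of each gene), with medians as orange lines for lists of at least 15 genes and dashed lines at 2-fold. Members lie between -0.67 and 1.17, signalling genes between -0.23 and 1.59 with a median of 0.07, and the response genes between 0.52 and 9.26.

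Sequences next to the start sites were read from RefSeq promoter windows (GRCm38.p6, 250 bases before to 50 after each start), which hold 17 windows for the 10 genes. They were searched on both strands for 4 motifs: NF-kB as GGG, any pair of bases and TTTCC, AP-1 as TGANTCA, C/EBP as TTGCNNAA and the TATA box as TATAAA. Over 32851 windows these were found in 1.63%, 7.81%, 10.8% and 13.6%. Among the members an NF-kB match lay in 2 windows of Il1rn, which overlap and hold the same genomic site, AP-1 in 2 windows, of Il1a and Il1rn, C/EBP in 3 windows, of Il33, Il1r1 and Il1rl1, and TATA in 6 windows of 5 genes. A match describes the letters and does not show binding. The stretches below are those of Il1rn, the member past 2-fold, of Il1b, not well above background here, and of Il33, bright on both arrays, with motif matches in capitals.
Il1rn, start site 1, chr2:24336660-24336859, plus strand: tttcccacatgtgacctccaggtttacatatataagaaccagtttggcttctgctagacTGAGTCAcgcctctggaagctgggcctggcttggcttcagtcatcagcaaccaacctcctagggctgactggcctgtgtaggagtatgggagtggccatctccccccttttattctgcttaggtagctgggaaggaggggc
Il1rn, start site 3, chr2:24345310-24345339, plus strand: ggaaatatgaGGGTTTTTCCgcttctgaca
Il1b, chr2:129371140-129371339, minus strand: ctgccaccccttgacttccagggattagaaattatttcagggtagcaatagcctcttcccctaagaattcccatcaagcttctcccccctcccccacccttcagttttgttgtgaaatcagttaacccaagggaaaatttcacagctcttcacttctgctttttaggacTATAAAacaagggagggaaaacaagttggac
Il33, start site 2, chr19:29945590-29945789, plus strand: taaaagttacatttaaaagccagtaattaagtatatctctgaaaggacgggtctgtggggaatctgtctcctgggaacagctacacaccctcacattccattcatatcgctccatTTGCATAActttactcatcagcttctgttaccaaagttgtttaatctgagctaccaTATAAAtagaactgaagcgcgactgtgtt
The capitals are an AP-1 match at -141 to -135 and an NF-kB match at -51 to -42 of the Il1rn starts, a TATA match at -31 to -26 of Il1b, and a C/EBP match at -85 to -78 and a TATA match at -29 to -24 of Il33. Since the Il1rn probe reads its 3 transcripts together, its difference cannot be assigned to a start site.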

How the data were processed

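Total RNA from CMT93 cells was labelled with Cy3 and hybridised to one-colour Agilent arrays, with 1 array per group. Each deposited intensity was made by Feature Extraction (Agilent, version 10.10.1.1) by subtracting a background that includes a fitted spatial trend and by a multiplicative correction for position on the array, per the file headers. Local background is printed for comparison and entered the normexp alternative alone. For spots indistinguishable from background the software wrote a surrogate, so the values of such spots have no order. The deposited 0 or 1 flags for signal above background, outliers and saturation were used as other values, per the file headers.

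From the deposited intensity, 223 flagged non-control spots were left out, log2 was taken, and each array was centred on its own 75th percentile. Spots of one probe were averaged. Member probes were taken by the gene name in the files. In pathway lists a gene took its brightest measured probe, with symbols updated through accessions of a RefSeq table (GRCm38.p6) for 28026 of 55681 probes. Because a group is 1 array, there was no test, and differences were described by size, at 2-fold. A probe was counted as measured where it was well above background on both arrays. For a probe above background on 1 array, a bound was computed from the lowest signal well above background on the other array, or the dim probe's own signal if higher. The error of a log2 difference combines the error that the scanner software gave each spot. Scaling, calls and bounds were tested on simulated data. The simulated differences were placed only in probes brighter than those of Il1rn, Il1rap and Il18r1, so calls on such dim probes were not covered.

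The genes named are all members, plus the pathway genes at least 2-fold different or with a bound of at least 2-fold, and the lowest and highest of each list. Other pathway and marker genes, such as Casp1 and Nlrp3, were named after their values were seen. Both samples carry identical treatment wording, which was read as describing the LPS sample alone. The labels do not say whether the arrays came from separate cultures. Members and lists were chosen with earlier results of these data known. Alternatives were normexp (offset 50), background-subtracted signal floored at 1, quantile, loess and median scaling, other percentiles, no scaling, other filters and other fold sizes, and the median over a gene's probes. R 4.3.3 with limma 3.58.1, Python 3.11.15, numpy 2.4.6, pandas 2.3.3 and matplotlib 3.10.9 were used.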

Additional observations from a re-analysis of the deposited data

How the results depend on the processing

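All 7 member probes kept the sign of their difference under all 7 other background corrections and scalings (49 of 49 values). Median scaling, the percentile of detected probes and no scaling each shift all probes by the same small amount, so they could hardly change a sign. All of these values come from the same 2 arrays. The count of member probes at least 2-fold higher, 1, was 0 with normexp, among brighter probes only (2 member probes measured) and at 4-fold, and 3 at 1.5-fold, while that of lower ones, 0, was 1 at 1.5-fold. With the looser background flag 9 member probes counted, and without the background filter 15, with 1 of them 2-fold higher in either case. Over the array the 374 higher and 149 lower probes became 200 and 43 with normexp, 1106 and 928 with the looser background flag, 2121 and 1949 with no background filter, 129 and 20 among brighter probes, 985 and 774 at 1.5-fold, and 95 and 19 at 4-fold. Higher genes among other ligands were 2 with no filter and 0 among brighter probes and at 4-fold. Those among other receptor chains were 2 with no filter, and 0 with normexp, among brighter probes and at 4-fold. Processing genes had 3 higher with the looser flag and with no filter, 2 at 1.5-fold and 0 at 4-fold, and 0 lower among brighter probes, at 4-fold and with the median over probes. Higher signalling genes were 0 with normexp, among brighter probes and at 4-fold. The median of the response genes was 2.82 with normexp, 4.15 with the looser flag and 2.90 with no filter. Filters and fold sizes set what is counted. Normexp adds its offset of 50 to the signals of both arrays, which by arithmetic shrinks ratios, most of all for dim probes. The part of this offset in the normexp values was not tested apart from the background model. The causes of the other changes were not tested. Dim members are limited by their signal over background: Il1rn, Il1rap, Il18r1 and the variant 1 probe of Il1rl1 lay under 5 times their local background. No paired analysis was possible because each group has 1 array.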

Other observations

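Il1bos, a long noncoding RNA gene on the strand opposite Il1b, was above background on neither array, with a raw brightness of 29.1 over a local background of 24 on the LPS array.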
